A study of Mus musculus with 4 samples.

Results

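Mouse transcripts with a 3′ untranslated region (3′UTR) of at least 3000 nt were examined in heart and in tibialis anterior (TA), a fast hindlimb muscle. A transcript model was included in a tissue when its listed 3′UTR was 3000 nt or longer and its coding sequence had an RNA level of at least 5 RPM. Of 11243 models in the tables of both tissues together, 1062 met the rule in at least 1 tissue. There were 1027 long-3′UTR models of 10796 in heart and 898 of 10356 in TA. In both tissues 863 met it, in heart only 164 and in TA only 35. Another 193 long models in heart and 296 in TA were listed below the RNA minimum. The rule used the 3′UTR length and the coding RNA level, so neither is a finding here.

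The 3′UTR lies between the stop codon and the poly(A) tail and is not translated. It holds most of the sites through which microRNAs and RNA-binding proteins act on the stability, location and translation of an mRNA. Many genes have more than 1 cleavage and polyadenylation site, so that the same coding sequence can be followed by a short or a long 3′UTR, and cells and tissues differ in which site they use.

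The mice were 10-week-old males of the inbred strain C57BL/6J, with no treatment or genetic change named. Frozen heart or TA was lysed in cycloheximide, a drug that halts ribosomes on the mRNA. From the lysate came a library of total RNA depleted of ribosomal RNA and a library of ribosome-protected fragments (RPF, or footprints), the pieces of mRNA shielded by a ribosome from RNase I. There were 4 libraries, 1 per kind and tissue, with no replicates, so that no difference has a replicate check, no test could be made and calls rest on fixed sizes. Values were RPM, reads scaled to the coding reads of the library. A read was worth 0.107 RPM in the heart RNA library and 0.0621 RPM in the TA RNA library, so the minimum of 5 RPM is reached with fewer reads in heart. Intervals are exact 95% intervals, given for RNA only, and cover counting error only. All 6 heart muscle markers were listed in heart, with a summed coding RNA of 90945 RPM against 216 RPM for the 3 listed in TA. All 6 fast skeletal muscle markers were listed in TA, with 151262 RPM against 68.5 RPM for the 3 listed in heart. Of other cells, 1 of 2 red cell markers was listed, at 11935 RPM in heart and 446 RPM in TA. The 4 endothelial markers summed to 858 and 198 RPM, 4 macrophage and leukocyte markers to 145 and 25.2 RPM, and the smooth muscle markers to 250 RPM (3 listed) and 81.7 RPM (2 listed). The 4 fibroblast markers summed to 947 and 896 RPM, and the nerve and Schwann cell markers to 1.61 RPM (1 of 3 listed) and 14.0 RPM (2 listed). Their part in the differences between tissues was not tested, and in these bulk samples fewer cells of a type and less RNA per cell cannot be told apart.

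Long 3′UTRs have room for many microRNA sites. The mature sequences of 4 microRNAs known from muscle are shown because their sites were searched in the members, as RefSeq gives them with the build GRCm38.p6, with the seed (bases 2 to 8) in capitals. miR-206 and miR-133b are known from skeletal muscle, miR-208a from heart, and miR-499 from heart and slow muscle. The microRNAs themselves were not measured in these libraries.
miR-206-3p: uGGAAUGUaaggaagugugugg
miR-133b-3p: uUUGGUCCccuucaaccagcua
miR-208a-3p: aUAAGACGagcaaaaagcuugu
miR-499-5p: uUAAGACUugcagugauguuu
The seeds of miR-208a and miR-499 share their first 6 bases. A site was an exact match of 8 letters on the transcript strand, the complement of the seed followed by A: ACATTCCA for miR-206, GGACCAAA for miR-133b, CGTCTTAA for miR-208a and AGTCTTAA for miR-499. In heart 828 members, 80.6%, and in TA 721, 80.3%, had a 3′UTR of matching length in the GENCODE annotation of GRCm38, and the sites were counted in those.

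A site of 3 of the microRNAs is shown in a member with high coding RNA per nt in heart among the members with that site, on the transcript strand, with the 8 matching letters in capitals. These windows show what a site within a long 3′UTR looks like.
Qk, miR-206, from base 3611 after the stop codon: atgacaacACATTCCAtgcatggc
Fbxo32, miR-208a, from base 1118: gatgtgttCGTCTTAAacttgttt
Eif4g2, miR-499, from base 870: aatttcatAGTCTTAAttagtagt
Qk encodes an RNA-binding protein of splicing and mRNA stability, Fbxo32 the muscle ubiquitin ligase atrogin-1, and Eif4g2 a relative of the initiation factor eIF4G. In Qk the site lay in the last part of a 3′UTR of 5251 nt. In Fbxo32 and Eif4g2 it lay in the first part of a 3′UTR of 5587 and 4707 nt.

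Such sites were found in a small share of the members. In heart a miR-206 site was present in 88 of 828 members (10.6%), a miR-133b site in 56 (6.76%), a miR-208a site in 13 (1.57%) and a miR-499 site in 102 (12.3%). Over all 8922 matched 3′UTRs of any length the shares were 3.83%, 2.68%, 0.594% and 3.24%, and over the 1030 matched 3′UTRs of at least 3000 nt at any RNA level they were 10.6%, 7.09%, 1.65% and 12.0%. In TA, miR-206 sites were in 69 of 721 members (9.57%) and miR-499 sites in 96 (13.3%). The median translational efficiency, defined below, of members with a miR-206 site was -0.41 in heart and -0.60 in TA, against -0.44 and -0.50 for members without. For miR-133b the medians were -0.44 with and -0.43 without in heart, and -0.65 and -0.50 in TA. For miR-499 they were -0.57 and -0.42 in heart, and -0.74 and -0.48 in TA. For the 13 members with a miR-208a site they were -0.0011 and -0.44 in heart, and for 13 in TA -0.23 and -0.52. No direction common to all 4 microRNAs was seen in either tissue. Members with a miR-206, miR-133b or miR-499 site also had longer 3′UTRs at the median, for miR-206 in heart 4102 against 3867 nt, so the groups differ in more than the site.

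The first comparison asked how much of each long 3′UTR was represented in the RNA. For each model the RNA per nt of the 3′UTR was divided by the RNA per nt of the coding sequence within the same library. A ratio of 1 means equal density, and a low ratio is what a shorter 3′UTR in use would give. It need not be the only source, and the cause of low ratios was not tested. Long 3′UTRs were covered nearly as densely as short ones. The median ratio was 0.717 in heart, with quartiles of 0.495 and 0.965, and 0.765 in TA, with quartiles of 0.545 and 0.992. In models with a 3′UTR of 300 to 800 nt (2275 in heart, 1909 in TA) it was 0.762 and 0.793. A ratio under 0.25 was called low. That was the case for 74 long models in heart (7.21%) and 59 in TA (6.57%), and the background over all models at the RNA minimum with at least 300 nt of 3′UTR was 6.78% in heart and 5.85% in TA. The members' shares were thus near the background. A ratio over 2 was called high, with 14 members in heart (background 1.47%) and 11 in TA (background 1.24%).

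**Figure D1:**
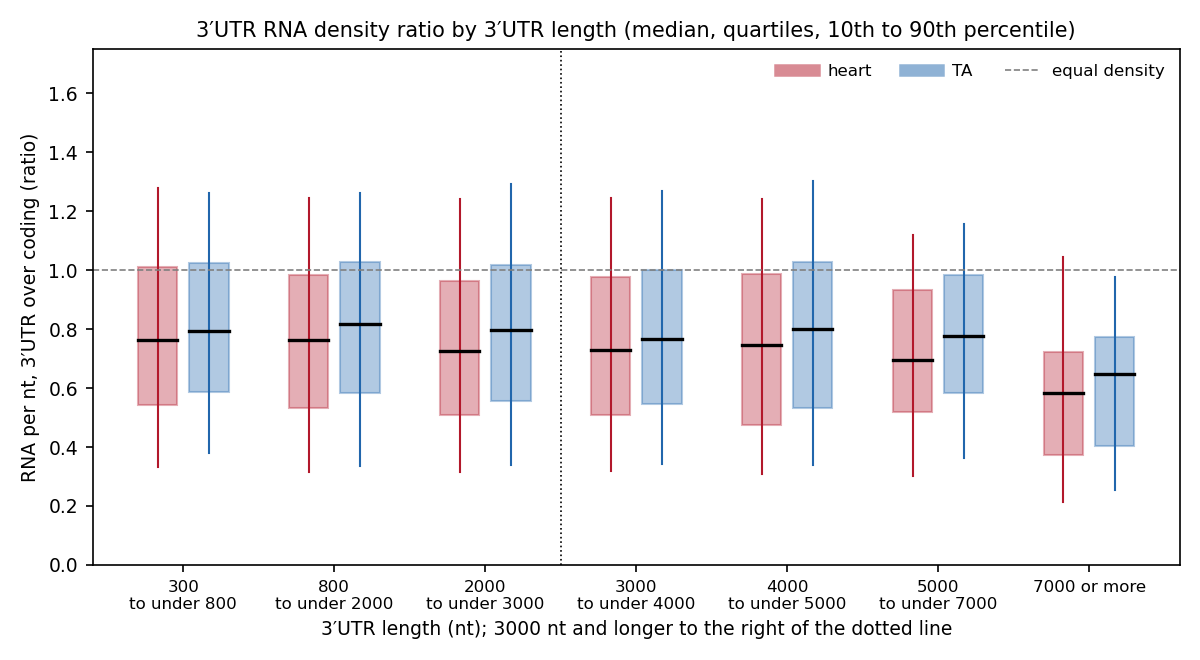
RNA per nt of the 3′UTR over RNA per nt of the coding sequence (vertical axis) by 3′UTR length in nt (horizontal axis), in heart (red) and TA (blue). Black lines are medians, boxes quartiles and thin lines the 10th to 90th percentile over models. The medians of the classes from 3000 to under 7000 nt lie between 0.694 and 0.80, and those of 7000 nt or more at 0.583 and 0.649.

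Among the members, those with the longest 3′UTRs had the lowest median. From 3000 to under 4000 nt the median ratio was 0.730 in heart (547 models) and 0.768 in TA (468). From 4000 to under 5000 nt it was 0.747 (256) and 0.80 (222). From 5000 to under 7000 nt it was 0.694 (166) and 0.779 (149). At 7000 nt or more it was 0.583 (58) and 0.649 (59), with 7 low members in heart (12.1%) and 6 in TA (10.2%). Because of their length, the members carried a large part of all 3′UTR reads. They were 9.51% of the models in heart and held 29.9% of the listed 3′UTR length, 23.9% of 3′UTR RNA and 6.97% of coding RNA. In TA they were 8.67% of the models and held 27.5%, 24.2% and 4.95%.

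The 5 longest 3′UTRs differed among themselves. Aak1, which encodes a kinase of clathrin-coated vesicles, has a listed 3′UTR of 15929 nt and ratios of 0.587 in heart (interval 0.534 to 0.645) and 0.590 in TA (0.519 to 0.671). Slc8a1, the sodium-calcium exchanger of the heart cell membrane, has 15586 nt. Its coding sequence had 1044 RPM of RNA in heart and 43.2 RPM in TA, and its 3′UTR 860 and 40.7 RPM. Its ratios were low in both tissues, at 0.154 (0.149 to 0.158) and 0.176 (0.158 to 0.196), although its coding RNA level as deposited differed by over 20-fold. Fbxl17, an F-box protein gene with 14319 nt, had 0.382 and 0.537. Strbp, an RNA-binding protein gene with 14162 nt, had 0.213 and 0.367. Lpp, a protein of focal adhesions, has 13257 nt and had 0.916 (0.817 to 1.03) and 1.12 (0.982 to 1.27), so its listed 3′UTR was covered about as densely as its coding sequence.

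The lowest ratio in both tissues was that of Itsn1, an endocytic scaffold protein. Its coding sequence of 5139 nt had 84.8 RPM of RNA in heart and 124 RPM in TA, and its listed 3′UTR of 8570 nt had 0.43 RPM in each. The ratio was 0.0030 in heart (0.000823 to 0.0078) and 0.0021 in TA (0.000841 to 0.0043). GENCODE lists a 3′UTR of 327 nt behind the same stop codon. Dad1, a subunit of the enzyme that attaches sugar chains to new proteins, had 21.2 RPM of coding RNA in heart and 10.2 in TA against 2.14 and 1.30 RPM in a 3′UTR of 3077 nt. Its ratios were 0.011 (0.0066 to 0.0175) and 0.0139 (0.0084 to 0.0221), and GENCODE lists a 3′UTR of 274 nt behind its stop codon. RNA of both coding sequences was thus present in both tissues while the long listed 3′UTRs were nearly without reads.

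Other members with very low ratios were of varied function. Paip1, a partner of the poly(A)-binding protein, had 0.0305 in heart and 0.0613 in TA. Mrpl15, a protein of the mitochondrial ribosome, had 0.0397 and 0.0267. Stx8, a SNARE protein of membrane fusion, had 0.0447 and 0.0326. Prpf19, a splicing factor and ubiquitin ligase, had 0.0511 and 0.0646. Cst6, a cysteine protease inhibitor that met the rule in TA only, had 0.0214. A ratio under 0.1 was found in 14 members in heart (1.36%, background 1.6%) and 16 in TA (1.78%, background 1.56%), which is near the background. Of the 863 models in both tissues, 71 were low in heart and 57 in TA, and 51 in both, which is 71.8% of the first and 89.5% of the second. This overlap was not counted over all models, so it cannot be called particular to long 3′UTRs.

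At the other end, among members with at least 10 RPM of coding RNA in heart, stood Eml5. Eml5, a microtubule-binding protein, had 15.2 RPM of coding RNA in heart and 11.6 in TA over 5928 nt, and 30.7 and 20.5 RPM over a 3′UTR of 3746 nt. Its ratios were 3.20 (2.61 to 3.94) and 2.79 (2.33 to 3.36). Trp53inp2, an autophagy protein, had 84.1 and 41.3 RPM of coding RNA against 1048 and 601 RPM in its 3′UTR, with ratios of 2.69 (2.5 to 2.90) and 3.15 (2.91 to 3.41). Gcap14 had 2.47 and 2.32. Camk2a, a calcium-dependent protein kinase, had 2.11 and 2.33, and Irs1, the main docking protein of the insulin receptor, 1.81 and 2.39. Zscan29 had 2.72 in heart and 2.81 in TA, where its coding RNA was 7.51 RPM. For these genes the 3′UTR held more RNA per nt than the coding sequence of the listed model in both tissues.

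A shorter 3′UTR behind the same stop codon, by at least 500 nt, was listed for 306 of 828 matched members in heart (37.0%) and 272 of 721 in TA (37.7%). The median ratio of those was 0.724 in heart and 0.760 in TA, and of the rest 0.751 and 0.802. A low ratio was found in 23 of the 306 in heart (7.52%) and 25 of the other 522 (4.79%), and in TA in 16 of 272 (5.88%) and 20 of 449 (4.45%). These shares are incomplete, because only 64.9% of the low members in heart and 61.0% in TA had a matching annotation. The 3′UTRs of the members had a median GC content of 42.7% in heart and 42.5% in TA, and the letters AATAAA, the core polyadenylation signal, occurred in the median member 3 times. The 276 members lowest in GC in heart had a median ratio of 0.688 and the 276 highest 0.891. In TA the 241 lowest had 0.774 and the 240 highest 0.861. The part of GC content in the ratio was not tested.

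The second comparison asked whether coding sequences in front of a long 3′UTR carried fewer footprints per RNA. Efficiency was log2 of (coding RPF + 0.1) over (coding RNA + 0.1) minus its median in the tissue, so 0 is the typical model and -1 is 2-fold below it. Models with a long 3′UTR lay lower than models with a short one in both tissues. The median was -0.41 in heart and -0.49 in TA, against 0.05 and 0.02 for 3′UTRs of 300 to 800 nt, a difference of -0.46 and -0.52. At least 2-fold below the tissue median were 305 long models in heart (29.7%), with a background of 19.4% over all models at the RNA minimum, and 301 in TA (33.5%), with a background of 21.6%. At least 2-fold above it were 93 in heart (9.06%, background 14.5%) and 72 in TA (8.02%, background 13.3%). The members are part of the background, and the RNA minimum of the rule is set on the denominator of the efficiency.

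**Figure D2:**
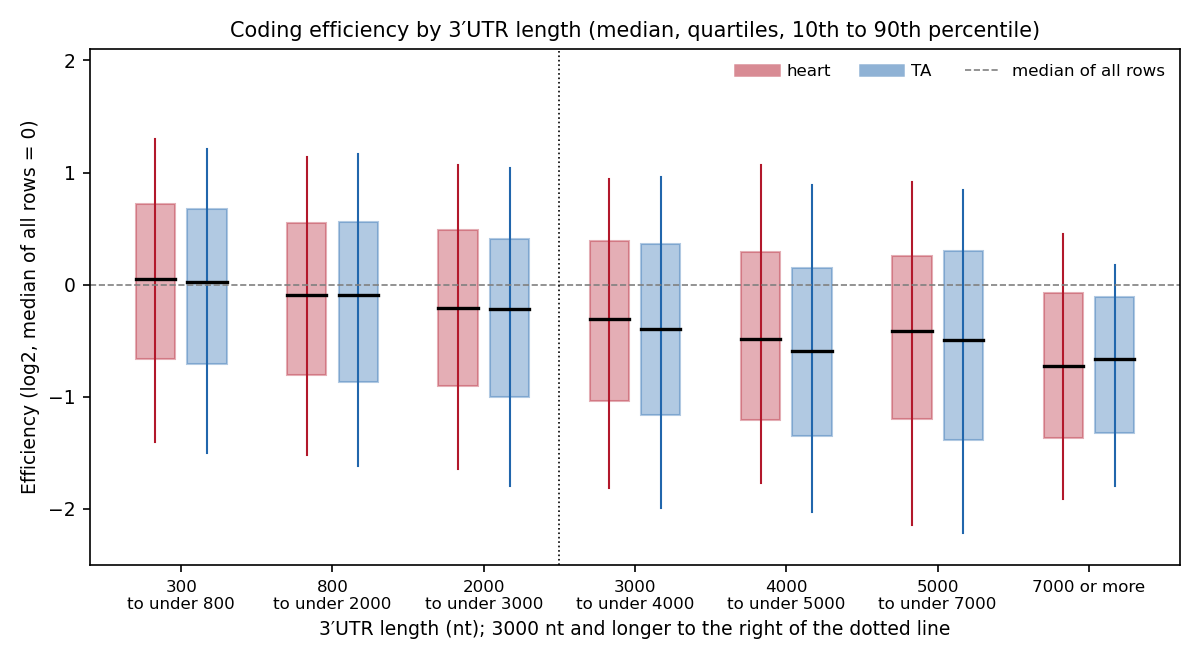
Coding efficiency (log2, 0 is the tissue median, vertical axis) by 3′UTR length in nt (horizontal axis) in heart (red) and TA (blue), with medians (black), quartiles (boxes) and the 10th to 90th percentile (thin lines) over models. The medians go from 0.05 and 0.02 at 300 to under 800 nt to -0.72 and -0.66 at 7000 nt or more, and the boxes of all classes overlap.

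The step was gradual. The median efficiency was -0.10 in heart and -0.10 in TA for 3′UTRs of 800 to under 2000 nt, -0.21 in both for 2000 to under 3000 nt, and -0.30 and -0.40 for 3000 to under 4000 nt. It was -0.49 and -0.59 from 4000 to under 5000 nt, -0.41 and -0.49 from 5000 to under 7000 nt, and -0.72 and -0.66 at 7000 nt or more. Within the members alone 3′UTR length ranked only weakly with efficiency, with a Spearman rank correlation of -0.07 in heart over 1027 models and -0.09 in TA over 898. These models share 2 libraries per tissue, so the correlation is a description. Coding length ranked more closely with it, at -0.41 and -0.39.

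Long-3′UTR models also had longer coding sequences, with a median of 1767 nt in heart and 1842 nt in TA against 1422 and 1434 nt, and longer 5′UTRs, with 211 and 212.5 nt against 139 and 137 nt. The comparison was therefore repeated within bins of these properties. In each of 7 bins of coding length the members had the lower median, by 0.19 to 0.47 in heart and by 0.20 to 0.54 in TA on the log2 scale. Weighted by members over these bins, the difference was -0.29 in heart and -0.36 in TA, smaller than without bins. It was also smaller where the 5′UTR was long: at 500 nt or more the medians were -0.73 against -0.66 in heart and -0.74 against -0.73 in TA. With the trends of both lengths removed the difference was -0.22 in heart and -0.29 in TA.

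**Figure D3:**
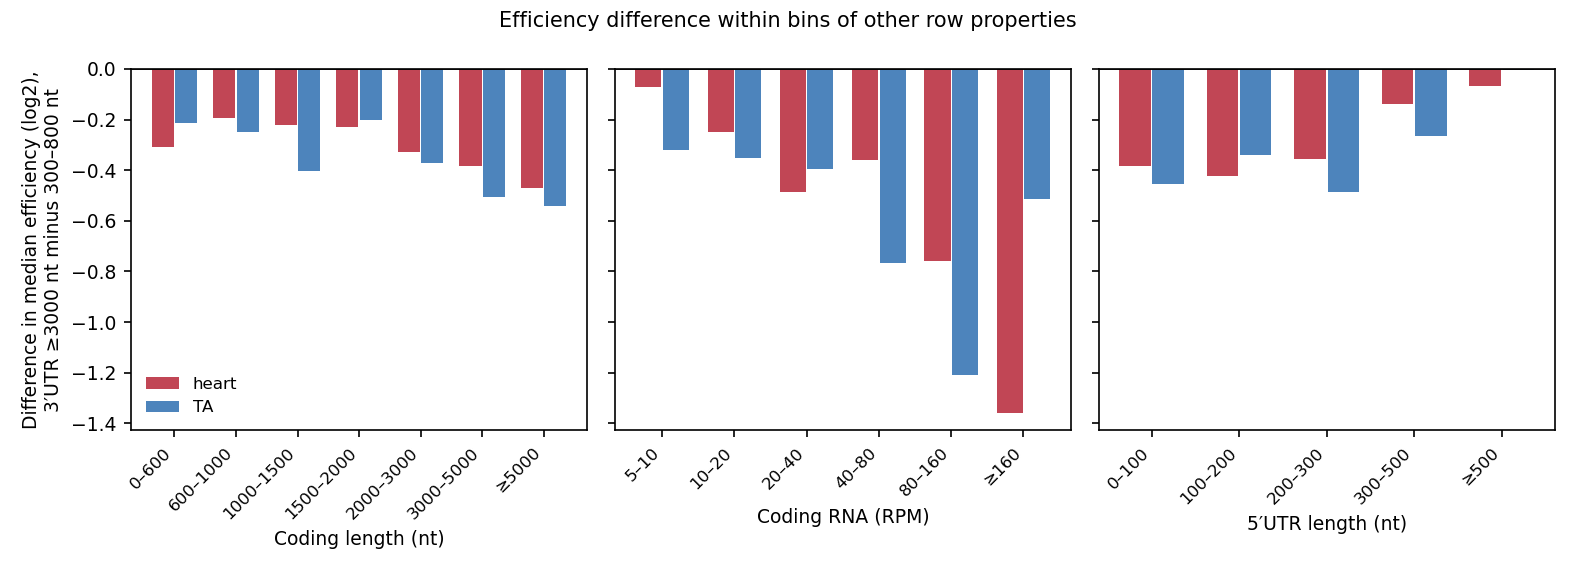
Median efficiency of models with a 3′UTR of at least 3000 nt minus that of models with 300 to 800 nt (log2, vertical axis), within bins of coding length in nt, coding RNA in RPM and 5′UTR length in nt (horizontal axes), in heart (red) and TA (blue). All bars lie at or below 0. They reach -1.36 in heart above 160 RPM and -1.21 in TA between 80 and 160 RPM, and are near 0 for 5′UTRs of 500 nt or more.

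The gap was mostly wider in bins of higher coding RNA. Exceptions were the top bin of TA and the bin of 40 to 80 RPM in heart. In heart the difference was -0.49 at 20 to 40 RPM and -0.36 at 40 to 80 RPM. Coding RNA here was not divided by length and is the denominator of the efficiency, and these bins were not matched for coding length. At 160 RPM or more of coding RNA the 71 members in heart had a median of -1.14 against 0.22 for 199 models with short 3′UTRs. From 80 to 160 RPM the medians were -0.71 and 0.05 in heart, and -1.01 and 0.20 in TA. At 160 RPM or more in TA they were -0.51 for 51 members and 0.0034 for 132 models with short 3′UTRs. At 5 to 10 RPM they were 0.10 and 0.17 in heart, and -0.19 and 0.13 in TA. Abundant members showed both ends. Zfp106, a zinc finger RNA-binding protein, had 1837 RPM of coding RNA in heart and 2020 RPM in TA but 128 and 63.8 RPM of footprints. Its efficiency was -3.40 and -4.72. Eif4g2 had 1484 and 850 RPM of RNA and 182 and 129 RPM of footprints, with -2.59 and -2.45. Ogdh, the first subunit of the 2-oxoglutarate dehydrogenase of the citric acid cycle, had 3923 and 1101 RPM of RNA and 3746 and 1517 RPM of footprints, with 0.37 and 0.72. Zfp106 and Eif4g2 were thus rich in RNA and poor in footprints in both tissues, while Ogdh lay above the median.

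Members with high efficiency were of varied function. Cxcl12, a chemokine that guides blood cells and stem cells, had 16.6 RPM of RNA and 70.8 RPM of footprints in heart and 5.15 and 34.2 RPM in TA, with an efficiency of 2.53 and 2.97. Igfbp5, a secreted protein that binds insulin-like growth factors, had 27.3 and 84.8 RPM in heart and 67.1 and 307 RPM in TA, with 2.07 and 2.45. Hnrnpa3, an RNA-binding protein of the nucleus, had 2.44 and 2.24. Ncl, nucleolin, had 1.89 and 2.30. Naa50, an N-terminal acetyltransferase, had 1.83 and 2.47, and Fyttd1, an mRNA export adaptor, 2.11 and 0.81. Clic4, a chloride intracellular channel protein, had 2.27 and 2.54, and Camk2a 3.02 and 2.78. A long listed 3′UTR thus went with an efficiency at least 2-fold above the median in these members in both tissues, except Fyttd1 in TA.

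Groups of members by function, chosen with earlier results of these data known, are described by counts and medians. For reading the counts, 29.7% of all members in heart and 33.5% in TA were at least 2-fold low, and 19.4% and 21.6% of all models. At least 2-fold high were 9.06% and 8.02% of all members, and 14.5% and 13.3% of all models. Of genes of RNA silencing, the Argonaute proteins and their partners, 5 were members in heart and 6 in TA. Their median efficiency was -0.90 and -1.42, and 2 of 5 in heart and 6 of 6 in TA were at least 2-fold low. Eif2c2, Argonaute 2, had 56.5 and 49.9 RPM of coding RNA in heart and TA, 26.0 and 18.7 RPM of footprints, and -0.68 and -1.15. Tnrc6b, the GW182 protein that links Argonaute to deadenylation, had a 3′UTR of 11610 nt, ratios of 0.842 and 0.913 and efficiencies of -1.29 and -1.32. Dicer1, the nuclease that cuts microRNA precursors, met the rule in TA only and had -1.70 there. The genes of this list that were not members had low medians too, -0.93 and -1.28.

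Of genes of deadenylation and decay 7 were members in heart and 6 in TA, with medians of -0.96 and -1.03 and 3 at least 2-fold low in each. The genes of the list that were not members had -0.42 and -0.72. Smg1, a kinase of nonsense-mediated decay, had -3.19 and -2.93, and Rc3h1 (roquin), which marks mRNAs for decay, had -2.86 and -2.73. Ddx6, a helicase of processing bodies, had 0.25 and 0.70. Proteins known to bind 3′UTRs had 15 members in each tissue, with medians of -0.15 in heart and 0.19 in TA. In heart 2 were 2-fold low and 0 high, and in TA 1 was low and 4 high. Those that were not members had 0.0071 and 0.17. Elavl1 (HuR), which stabilises mRNAs, had 1.00 and 1.03, Celf2 0.78 and 1.14, and Qk 0.92 and 1.02, while Mbnl1, the splicing factor sequestered in myotonic dystrophy, had -1.73 and -1.83. Cpsf6, a subunit of cleavage factor Im and the only member among genes of cleavage and polyadenylation, had ratios of 0.724 and 1.12 and efficiencies of 0.59 and 0.57.

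Members of insulin and IGF signalling numbered 17 in heart and 16 in TA, with median efficiencies of -0.64 and -0.91 against -0.09 and 0.10 for genes of the list that were not members. In heart 5 were at least 2-fold low and 2 high, near the share among all members, and in TA 7 and 2. Pik3ca, the catalytic subunit of PI3-kinase, had -1.58 and -1.71, and Rictor, a subunit of mTORC2, -1.31 and -1.32. Foxo1, a transcription factor restrained by insulin, had 0.52 and 1.10. The receptor gene Insr had -0.35 in both tissues.

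Of 41 transcription factor members in heart and 37 in TA, 12 and 13 were at least 2-fold low and 5 and 3 high, with medians of -0.47 and -0.48. These shares were near those of all members, and the list's other genes had -0.46 and -0.75. Nfat5, the factor of the response to osmotic stress, had -3.29 and -2.37, and Nfic 1.18 and 1.86. Of 32 and 29 kinases and phosphatases, 13 and 11 were low and 3 and 4 high, with medians of -0.47 and -0.64, against -0.22 and -0.34 for the other genes of the list. Ttbk2 had -2.77 and -3.19, and Lats1, a kinase of the Hippo pathway, -2.29 and -2.67. Ubiquitin ligases had medians of -0.20 in heart (16 members) and -0.34 in TA (15), above the -0.56 and -0.72 of those that were not members, with Fbxo32 at 0.84 and 1.00. Channels, pumps and carriers had 0.08 (22) and -0.31 (21), also above their other genes with -0.51 and -0.36. Secreted factors and receptors had -0.35 (21) and -0.30 (18), below their other genes with -0.10 and 0.08, with the BMP receptor Bmpr1a at -2.41 and -2.23.

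The sarcomere and cytoskeleton list had the lowest median 3′UTR ratio of the 11 lists in both tissues. Its 12 members in heart and 13 in TA had a median ratio of 0.428 and 0.353, against 0.717 and 0.765 over all members, and 4 and 3 were low, where 7.21% and 6.57% of all members were. Pdlim5, a protein of the Z-disc, had 0.103 and 0.0494. Dtna, alpha-dystrobrevin, had 0.167 and 0.345, Mapre1, a protein of growing microtubule ends, 0.224 and 0.244, and Ank3, an ankyrin, 0.236 and 0.251. Sspn, sarcospan, was at 1.51 and 1.31. The list's median efficiency was -0.19 and -0.07, and that of its other genes 0.23 and 0.41. Among the other lists low ratios were few: 2 ubiquitin ligases in heart and 1 in TA, of which Nedd4l had 0.191 and 0.225, and 1 each of the channels and of the secreted factors and receptors, Slc8a1 and Ncam1 (0.162 and 0.206).

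Footprints within the 3′UTR were sparse. The density of footprints in the 3′UTR over that in the coding sequence had a median of 0.0143 in heart and 0.0074 in TA, against 0.0077 and 0.0032 in models of 300 to 800 nt. No 3′UTR footprint was counted in 563 and 696 of these shorter models, against 5 and 30 members, so their medians lie nearer the floor. The 90th percentiles were closer, at 0.0923 in heart and 0.0482 in TA for members against 0.0893 and 0.0436. All members together had 0.0283 footprints in the 3′UTR per coding footprint in heart and 0.0149 in TA, against 1.27 and 1.47 for RNA. A ratio over 0.1 was found in 95 members in heart (9.25%), with a background of 8.2%, and in 39 in TA (4.34%), with a background of 3.98%. Among members with at least 10 RPM of coding RNA, the highest in heart were Atad2b, a chromatin-binding ATPase (1.63), Arhgap31, a GTPase-activating protein (0.830), and Prickle2, a planar polarity protein (0.695). Arhgap31 had 29.2 RPM of footprints in the 3′UTR and 48.7 RPM in the coding sequence in heart, and 8.74 and 33.5 RPM in TA, where its ratio was 0.362. Atad2b had 10.2 RPM in the 3′UTR in heart and 3.39 in TA, with a TA ratio of 0.354. The highest in TA were Fat3, a giant cadherin (1.07, with 0.45 RPM in the 3′UTR and 1.19 RPM in the coding sequence), Grlf1, another GTPase-activating protein (0.798), and Aptx, a DNA repair protein (0.584). Aptx had 20.9 RPM in the 3′UTR in TA and 0.89 RPM in heart. Of 863 members in both tissues 69 passed 0.1 in heart, 33 in TA and 21 in both (30.4% of the first and 63.6% of the second). The overlap over all models was not counted. Fragments in a 3′UTR need not come from ribosomes, and their source was not tested.

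Heart and TA were then compared for the 863 long models measured in both. The 3′UTR ratio was much alike. Its Spearman rank correlation was 0.915 over these models, which share their annotation and lengths. The difference, heart minus TA on the log2 scale, had a median of -0.13, and that of all 5965 models compared was -0.12, so changes are given relative to the latter as well. At least 2-fold higher in heart were 4 members (background 0.738%) and at least 2-fold lower 11 (background 1.89%). Relative to the median of all models, 6 were higher (background 0.889%) and 6 lower (background 1.26%). Within 2-fold were 848 members, 98.3%.

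**Figure D4:**
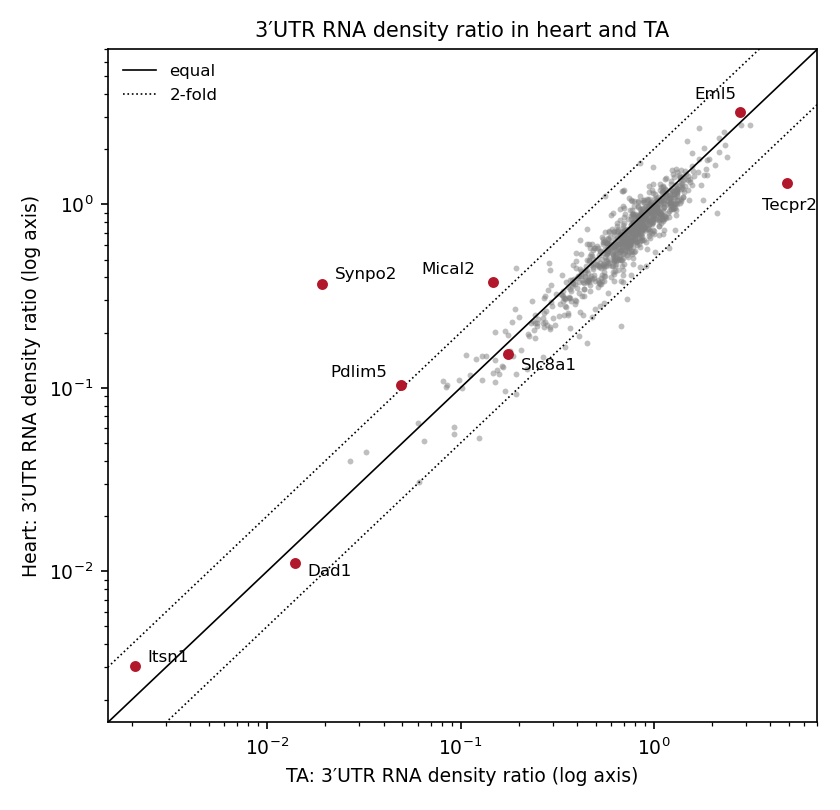
3′UTR RNA density ratio in TA (horizontal, log axis) and heart (vertical, log axis) of the 863 models measured in both, with the line of equal values and dotted lines at 2-fold. Most points lie between the dotted lines, Synpo2 (0.370 in heart, 0.0192 in TA) far above them and Tecpr2 (1.31 and 4.90) below.

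Synpo2, a Z-disc protein also called myopodin, differed most. Its coding sequence had 143 RPM of RNA in heart and 339 RPM in TA, but its 3′UTR of 3200 nt had 44.7 RPM in heart and 5.53 in TA. The ratio was 0.370 in heart (0.330 to 0.413) and 0.0192 in TA (0.0154 to 0.0237), a log2 difference of 4.24 with a counting error of 0.17. More coding RNA in TA thus went with less RNA in the listed 3′UTR. Mical2, an enzyme that oxidises actin, had 86.3 and 67.9 RPM of coding RNA and 39.3 and 12.0 RPM in the 3′UTR. Its ratios were 0.377 (0.333 to 0.428) and 0.146 (0.125 to 0.171), a difference of 1.36. Pdlim5 had 373 and 165 RPM of coding RNA and 64.8 and 13.7 RPM in the 3′UTR, a difference of 1.06. It falls to 0.99 with a pseudocount of 1 and so out of the 2-fold call. Next came Entpd5, an enzyme of the endoplasmic reticulum, with 1.69 and 0.847, and Kif3c, a kinesin motor, with 1.19 and 0.695. These were the 5 highest differences among members with at least 10 RPM in both tissues.

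Among the same members the ratio was lowest in heart relative to TA for Tecpr2, an autophagy protein. It had 19.4 RPM of coding RNA in heart and 12.2 RPM in TA, and 20.0 and 47.1 RPM in the 3′UTR. The ratios were 1.31 (1.06 to 1.61) and 4.90 (4.18 to 5.76), a difference of -1.90. Mllt3, a subunit of the super elongation complex, had 15.0 and 64.3 RPM of coding RNA and 10.9 and 113 RPM in the 3′UTR. Its ratios were 0.304 and 0.729, a difference of -1.25, and GENCODE lists a 3′UTR of 62 nt behind its stop codon. Plaa, a ubiquitin-binding protein, had 0.0531 and 0.124, a difference of -1.22. The intervals of the 2 tissues did not overlap in Tecpr2, Mllt3 or Plaa.

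Efficiency was also alike between the tissues, with a Spearman rank correlation of 0.902 and a median difference of 0.0032. At least 2-fold higher in heart were 29 members (background 3.41%) and at least 2-fold lower 7 (background 1.44%). Mef2c, a transcription factor of heart and muscle development, differed most. It had 43.2 RPM of coding RNA in heart and 215 RPM in TA, but 80.6 and 57.9 RPM of footprints. Its efficiency was 1.34 in heart and -1.63 in TA, a difference of 2.97, while its 3′UTR of 4448 nt was covered in both, with ratios of 1.02 and 1.28. As deposited, it thus had more RNA in TA, while its footprints differed by less than 2-fold and were higher in heart. Footprint levels were not compared relative to the median of all models. Slc4a4, a sodium bicarbonate cotransporter, had 61.4 and 34.6 RPM of RNA and 55.3 and 9.97 RPM of footprints, a difference of 1.81. Eml5 had 3.26 and 0.77 RPM of footprints, and Mdga1 13.8 and 8.64 RPM, with differences of 1.74 and 1.58.

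**Figure D5:**
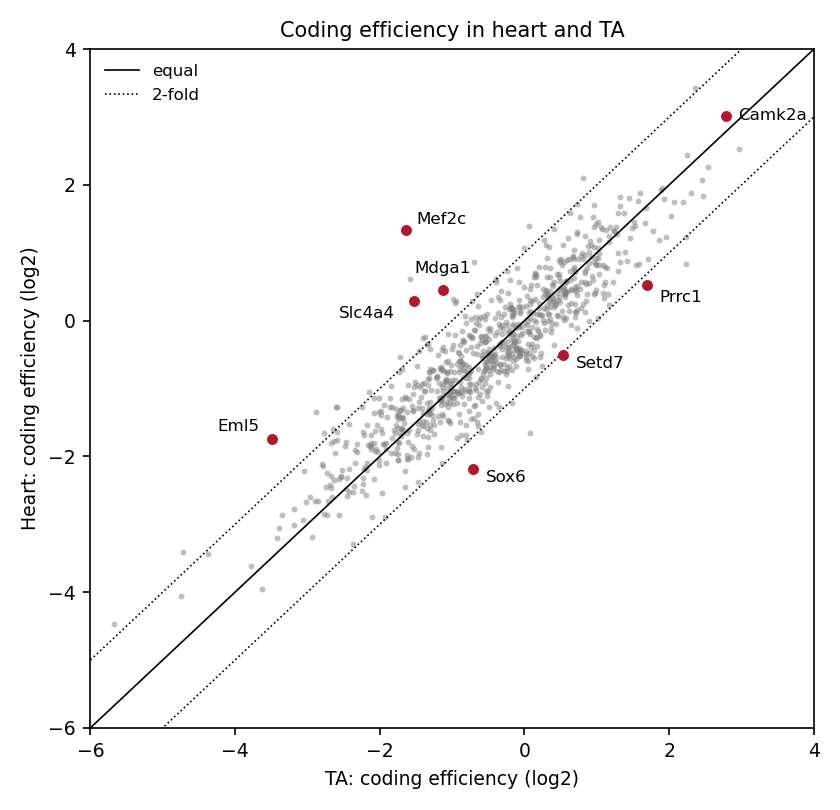
Coding efficiency (log2) in TA (horizontal axis) and heart (vertical axis) of the 863 models with a 3′UTR of at least 3000 nt measured in both, with the line of equal values and dotted lines at 2-fold. Mef2c (1.34 in heart, -1.63 in TA) lies farthest above the lines, and Sox6 (-2.19 and -0.71) lies below them.

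In the other direction, among members with at least 10 RPM of coding RNA in both tissues, stood Sox6, a transcription factor that represses slow-fibre genes in fast muscle. It had 26.1 RPM of coding RNA in heart and 118 RPM in TA, and 4.14 and 60.2 RPM of footprints. Its efficiency was -2.19 and -0.71, a difference of -1.48. Prrc1 had 16.7 and 15.2 RPM of RNA and 17.7 and 41.2 RPM of footprints, a difference of -1.17. Setd7, a lysine methyltransferase, had 29.5 and 131 RPM of RNA and 15.3 and 159 RPM of footprints, a difference of -1.05. Sox6 and Setd7 had both more RNA and more footprints per RNA in TA.

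The coding RNA level of the members differed more often. The median of heart minus TA was 0.64 on the log2 scale and 0.60 over all 7422 models compared, so counts depend on the scale. As deposited, 277 members were at least 2-fold higher in heart (background 28.8%) and 47 lower (background 3.62%). Relative to the median of all models, 100 were higher (background 10.4%) and 102 lower (background 9.05%). Slc8a1 was highest in heart, 4.59 as deposited and 3.99 relative to that median. Ablim1, an actin-binding LIM protein, had 419 RPM in heart and 19.8 RPM in TA. Synm, the intermediate filament protein synemin, had 22.6 and 730 RPM, a difference of -5.01 or, relative to the median, -5.61. Gpd2, the mitochondrial glycerol-3-phosphate dehydrogenase, had 19.1 and 254 RPM, and Scn4b, a sodium channel beta subunit, 18.2 and 191 RPM. The direction of these genes was the same on both scales.

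Models just inside and just outside the rule are given by their density ratio. In heart, Dirc2 and 6720456H20Rik (3002 nt) were inside by length, with ratios of 0.433 and 0.870, and Syt11 and Ttll7 (2999 nt) outside, with 1.04 and 0.991. By coding RNA, Homez and Ing5 (5.03 RPM) were inside, with 0.325 and 1.11, and Galnt4 and Runx1t1 (4.92 RPM) outside, with 1.24 and 0.974. In TA, Dirc2 (3002 nt) and Enpp4 (3003 nt) were inside, with 0.421 and 0.900, and Mier1 (2998 nt) and Ttll7 (2999 nt) outside, with 0.870 and 1.14. BC030336 and Dgke (5.03 RPM) were inside by coding RNA, with 0.795 and 1.19, and Car8 and Ogfrl1 (4.97 RPM) outside, with 0.377 and 0.835.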

How the data were processed

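Per the labels' protocols, 1 lysate gave both kinds of library, and RPF were fragments selected by size on a gel. Neither the number of mice behind a library nor the handling of reads that fit several transcript models is stated in the labels. The submitters' processing notes name Bowtie and the mouse build mm9. The authors deposited RPM values, per the file headers, beside the length of each region, and these were not divided by length. Coding RNA values summed to 993831 RPM in heart and 996776 RPM in TA, so the scale is relative to coding reads. A model that is not listed was not taken as 0.

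Whole RNA reads were recovered: 100% of 12366 low values in heart and 14151 in TA lay within 0.005 RPM of a whole number of reads, which gave 9285763 and 16049988 coding reads. RPF steps were too near the rounding for intervals. With single libraries a count test has no residual degrees of freedom, so it calls no genes here.

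The density ratio had no pseudocount. Efficiency and differences between tissues used 0.1 RPM, and efficiency was centred over models with at least 1 RPM of RNA (10684 in heart, 10033 in TA). Models were matched between tissues by symbol and all 3 lengths. Intervals are conditional Clopper-Pearson intervals. GENCODE release M21 was matched by accession or gene, with a coding length 6 nt above the listed one and a 3′UTR within 10% or 100 nt. No coordinates are given, since that annotation is of another build.

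Members and lists were chosen with earlier results of these data known. Genes were named from those with at least 10 RPM of coding RNA: the extremes of each measure and list, the longest, the most abundant and those beside the thresholds, of which not all are described. Insr, Foxo1, Camk2a in heart, Ncam1, and genes shown for a microRNA site were added after their values were seen. Alternatives changed the minimums, limits, pseudocount, comparison models, centring and bins. On simulated tables of 10796 (heart) and 10356 (TA) models, 200 members per tissue were lowered 5-fold in ratio. Recovery was scored only for members whose simulated true ratio lay well under the limit of 0.25, whether lowered or not, 187 and 183. Of these 99.5% were called low. Ratios near the limit were not scored, so recovery there is not known. Only counting noise was simulated, so errors of annotation or of read assignment were not covered. Python 3.11.15, numpy 2.4.6, pandas 2.3.3, scipy 1.17.1 and matplotlib 3.10.9 were used.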

Additional observations from a re-analysis of the deposited data

Results flagged for a closer look

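Mef2c had opposite efficiencies in the tissues, 1.34 in heart and -1.63 in TA, each at least 2-fold from the tissue median. With 1 library of each kind per tissue, the difference was not tested.

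The 5′UTR was outside the main measurement. In 173 members in heart (17.0% of 1015 with a listed 5′UTR) and 113 in TA (12.8% of 886), footprints per nt were denser in the 5′UTR than in the coding sequence. Among models with a 3′UTR of 300 to 800 nt the shares were 14.0% and 10.53%, and among all models at the RNA minimum 14.8% and 10.7%. The median efficiency of the members with the denser 5′UTR was -1.17 in heart and -1.42 in TA, against -0.24 and -0.36 for the other members. A like gap was found over all models, with -0.87 against 0.07 in heart and -1.10 against 0.03 in TA. Coding footprints enter both measures, so the 2 are not independent.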

How the results depend on the processing

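No paired analysis was possible because each tissue has 1 library of each kind. Alternatives were run for the density ratio, efficiency, footprints, tissue differences and lists, 144 values in all. Of these, 101 moved by less than an interval over models or 1.5-fold, and 43 by more. Such an interval treats models as the units and does not cover counting error of reads. The models share the same libraries, so this sorting is a description. Of the differences, 0 were counted as changing sign. The median efficiency difference between tissues, however, went from 0.0032 to -0.012 with a pseudocount of 1. At a coding RNA minimum of 20 RPM the median density ratio was 0.660 in heart and 0.720 in TA, the efficiency difference -0.58 and -0.66, the 2-fold low share 34.3% and 39.0%, the median footprint ratio 0.0108 and 0.0050, and its share over 0.1 7.03% and 2.27%. From 5000 nt the median density ratio was 0.662 and 0.720, the efficiency difference -0.55 and -0.61, and the 2-fold low share in heart 35.7%. From 2000 nt the efficiency difference was -0.35 and -0.37 and the low share 26.1% and 29.2%. With a limit of 0.5 or 0.1, the share of low density ratios was 25.6% or 1.36% in heart and 21.9% or 1.78% in TA, and over all models with at least 300 nt of 3′UTR 22.6% or 1.6% and 18.7% or 1.56%. The efficiency difference was -0.31 and -0.40 against 3′UTRs of 800 to 2000 nt, -0.29 and -0.36 without the coding length trend or in bins of coding length, and -0.22 and -0.29 without the trends of coding and 5′UTR length. With 20 RPM in both tissues, 439 members were compared: the median density difference was -0.17 with 5 lower in heart, efficiency was 2-fold higher in 14 and lower in 2, and coding RNA had a median of 0.49 with 107 higher and 22 lower. Centred, the median density difference was -0.0096 with 6 lower, and that of coding RNA 0.037 with 100 higher and 102 lower. The cause was not tested, but higher minimums leave fewer models.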
